A study of Mus musculus with 12 samples.

Results

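Ighd4-1, also called DQ52, is the shortest diversity (D) segment of the mouse immunoglobulin heavy chain locus. Its rearrangements were followed in the expressed J558 VH repertoire of 12 female MRL-lpr mice aged 14 weeks. A heavy chain CDR3 counted as a DQ52 sequence when it held the residues asparagine, tryptophan and aspartate in a row (NWD), which the 9 core bases of DQ52 encode in 1 of their 3 reading frames. Of 546610 unique translations with a located CDR3, 6173 (1.13%) met this rule, 3580 of them from control SMO-treated and 2593 from LFPRLR SMO-treated animals.

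All mice carried the Fas lpr mutation on the MRL background and develop a lupus-like disease. Groups of 6 received either a control splice-modulating oligomer (control SMO) or LFPRLR SMO, an oligomer that lowers the long form of the prolactin receptor by keeping its signalling exon out of the mRNA. Total RNA of splenic B cells was amplified from the J558 VH family to the Cμ constant region, so the data describe IgM transcripts of a single VH family and not the whole repertoire. Libraries held between 130635 and 227202 reads, except that of LFPRLR SMO replicate 6, which held 627 reads and 7 DQ52 translations. No molecular identifiers were described, so reads and unique sequences are not independent molecules, and the intervals below cover counting error only.

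Heavy chain genes are assembled by joining a D segment to a J segment and then a VH segment to the DJ join, with bases trimmed from and added to the ends. The CDR3 spans these joins and is the most variable part of the antigen binding site. DQ52 is the D segment nearest to the J segments and is known for its germline transcription and its frequent use in fetal B lymphopoiesis. In the RefSeq annotation of the C57BL/6J reference (GRCm38.p6), Ighd4-1 has 11 bases, against 23 for Ighd1-1 and 17 for the members of the Ighd2 family. Its neighbour on the side of the constant region is Ighj1, followed by Ighj2, Ighj3 and Ighj4. The mice studied here are of another strain, and positions are not given because the deposited sequences name no genome build.

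The coding of the motif was nearly uniform. Over all libraries 96.2% of the nucleotide sequences with the motif used the same 9 bases, and the share ran from 92.0% to 100% (median 96.3%) across the 12 libraries. The 5 DQ52 CDR3s found in the most libraries are shown with their commonest nucleotide sequence. Each runs from the codon after the VH cysteine to the codon before the J tryptophan. They show what surrounded the same 9 bases in the CDR3s found in the most mice. Capitals mark the 9 bases that encode the motif.

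ARSNWDFDY: gcaagatctAACTGGGACtttgactac
ANWDFDY: gcaAACTGGGACtttgactac
ANWDY: gcaAACTGGGACtac
ARNWDY: gcaagaAACTGGGACtac
ARRDPANWDLVDY: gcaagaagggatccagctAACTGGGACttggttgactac

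All 5 were joined to J2, which encodes the final tyrosine. ARSNWDFDY was found in 11 of 12 libraries, ANWDFDY and ANWDY in 10 each, ARNWDY in 9 and ARRDPANWDLVDY in 8. Their lengths ran from 5 to 13 residues, counted without the cysteine and tryptophan anchors. In ARNWDY the 9 bases were preceded only by codons for alanine and arginine, the usual end of VH, and followed by a single codon. The other J2 joins shown end in aspartate and tyrosine too, so the aspartate codon of ARNWDY and ANWDY may belong to J2. The last of the 5 carries 6 residues ahead of the motif and was read 607 times in all, more than the other 4, of which ARSNWDFDY had 504 reads and ANWDY 166.

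The motif lay near the middle of the CDR3. A mean of 3.29 residues preceded it (SD 0.206, n = 12 libraries) and 3.93 followed it (SD 0.285). Over the 2095 distinct DQ52 CDR3s, the residue just before the motif was alanine in 21.3%, glycine in 14.6% and serine in 13.9%. The residue just after it was glycine in 20.8%, tyrosine in 15.6% and valine in 13.5%. Among sequences with the common 9 bases, the bases C and T stood directly ahead of them in 23.4% to 47.9% (median 32.4%) of each library's sequences.

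The asparagine-tryptophan-aspartate frame was not the predominant frame of DQ52 in these libraries. The same 9 bases occurred in 16949 functional nucleotide sequences, of which 7360 read them in this frame, 7330 in a frame that gives threonine-glycine and 2259 in a frame that gives leucine-glycine. Per library the first frame took 25.2% to 52.3% (median 44.5%), the threonine-glycine frame 34.2% to 60.6% (median 43.4%) and the leucine-glycine frame 6.25% to 18.4% (median 12.4%). The first frame exceeded the threonine-glycine frame in 6 of 12 libraries, with a mean difference of -1.69 percentage points (SD 13.3, exact sign-flip test over libraries, two-sided p = 0.721). When each distinct CDR3 was counted once, the medians were 42.7%, 42.5% and 14.8%. The NWD rule therefore counts fewer than all rearrangements that kept the 9 bases, and the shares below are of that frame unless another is named.

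For comparison with the member sequences, the CDR3s of the other frames found in the most libraries are shown, with the same 9 bases in capitals.

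ATGTWFAY: gcAACTGGGACctggtttgcttac
ATGTFAY: gcAACTGGGACgtttgcttac
AKLGRDY: gcaaAACTGGGACgggactac

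ATGTWFAY, joined to J3, was found in 11 libraries and had 532 nucleotide sequences. ATGTFAY, also joined to J3, was found in 10 libraries. AKLGRDY, of the leucine-glycine frame and joined to J2, was found in 6. In rearrangements that were out of frame between VH and J, which cannot encode a heavy chain, the 9 bases occurred in 516 of 21963 sequences. The share was a median of 2.38% per library (0% to 3.04%, the 0 being 0 of 8 sequences in LFPRLR SMO replicate 6) against 2.57% (2.02% to 3.18%) in functional sequences. The difference of 0.482 percentage points (SD 0.982) was positive in 8 of 12 libraries and did not pass an exact sign-flip test (two-sided p = 0.0815). LFPRLR SMO replicate 6 is among the 8 and had the largest difference, 0% against 3.18% (16 of 503 functional sequences). The mean and SD therefore lean on that small library, and they were not computed without it.

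The share of DQ52 translations did not differ detectably between the treatment groups. In control SMO-treated mice it was 0.985% in replicate 3 (95% Wilson interval 0.913% to 1.06%), 1.21% in replicate 4, 1.06% in replicate 5, 1.20% in replicate 7, 1.16% in replicate 8 and 1.22% in replicate 9. In LFPRLR SMO-treated mice it was 1.34% in replicate 3, 1.19% in replicate 4, 1.09% in replicate 5, 1.42% in replicate 6, 1.08% in replicate 7 and 0.794% in replicate 8 (0.714% to 0.884%). The groups overlapped, and both the lowest and the highest share came from LFPRLR SMO-treated mice. The highest, of replicate 6, rests on 7 translations of 493 (0.689% to 2.90%). The medians were 1.18% (SD 0.0942, n = 6) and 1.14% (SD 0.223, n = 6), a difference of -0.0429 percentage points (exact two-sided Mann–Whitney U test p = 0.937, adjusted p = 0.937 over 8 measures compared between groups). The sign of this small difference turned under several other settings, given in the closing section.

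**Figure D1:**
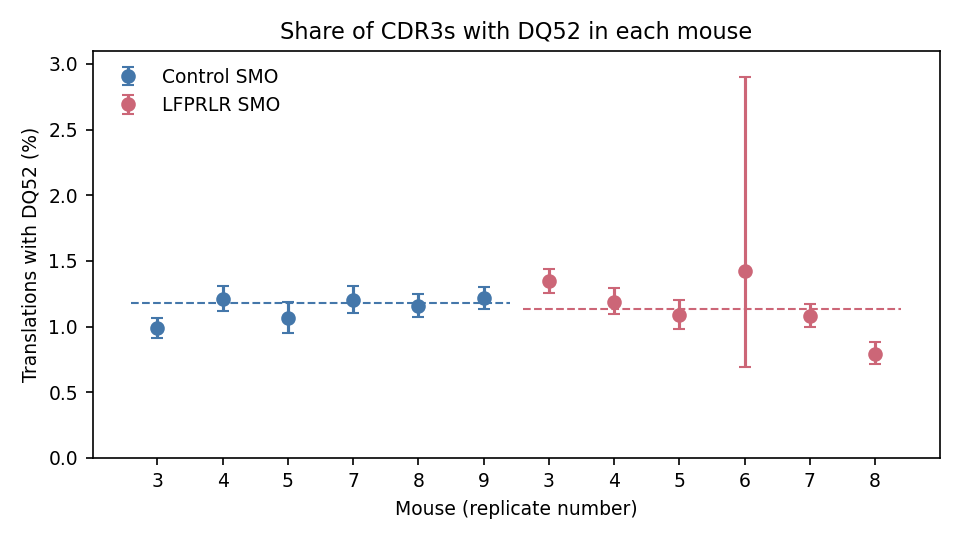
Share of unique translations whose CDR3 holds the DQ52 motif (%), for each mouse by replicate number. Points are mice, bars are 95% Wilson intervals and dashed lines are group medians (1.18% for control SMO and 1.14% for LFPRLR SMO). The point of LFPRLR SMO replicate 6 (1.42%) has the widest bar because its library held only 493 translations with a CDR3.

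As a background, the share of every tripeptide of the CDR3 with a mean share of at least 0.05% was compared between the groups in the same way. Of 1719 tripeptides, 179 (10.4%) had an unadjusted exact Mann–Whitney p under 0.05, 76 of them higher and 103 lower in LFPRLR SMO-treated mice. After adjustment 0 (0%) passed the same threshold, and the smallest adjusted p was 0.169 by that test. NWD was not among the 179. By p it ranked 1480 of 1719.

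When the 9 bases were counted in any frame, the order of the groups was the opposite. They occurred in 2.02% to 2.59% of functional sequences under control SMO (median 2.50%) and in 2.49% to 3.18% under LFPRLR SMO (median 2.69%). LFPRLR SMO replicate 4 (2.49%) lay within the control range and the other 5 libraries above it. The highest value, of LFPRLR SMO replicate 6, rests on 16 of 503 sequences. In LFPRLR SMO replicate 8 (3.02%), 60.6% of the sequences with the 9 bases read them in the threonine-glycine frame. With each distinct CDR3 of that library counted once, this share was 49.4%. The group comparison in any frame was not run over distinct CDR3s. The difference of 0.195 percentage points had an exact Mann–Whitney p of 0.0152 and did not pass adjustment over the 8 measures (adjusted p = 0.121). Weighted by reads the difference was 0.467 percentage points (exact Mann–Whitney p = 0.180, adjusted p = 0.932). Without LFPRLR SMO replicate 4 the adjusted p was 0.0346 (exact test), and without any other single library it lay between 0.139 and 0.242. By frame, the medians were 1.08% and 1.24% for threonine-glycine (exact p = 0.0260, adjusted p = 0.0779 over 3 frames), 1.15% and 1.10% for the motif's own frame (exact p = 0.937) and 0.286% and 0.396% for leucine-glycine (exact p = 0.394).

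**Figure D2:**
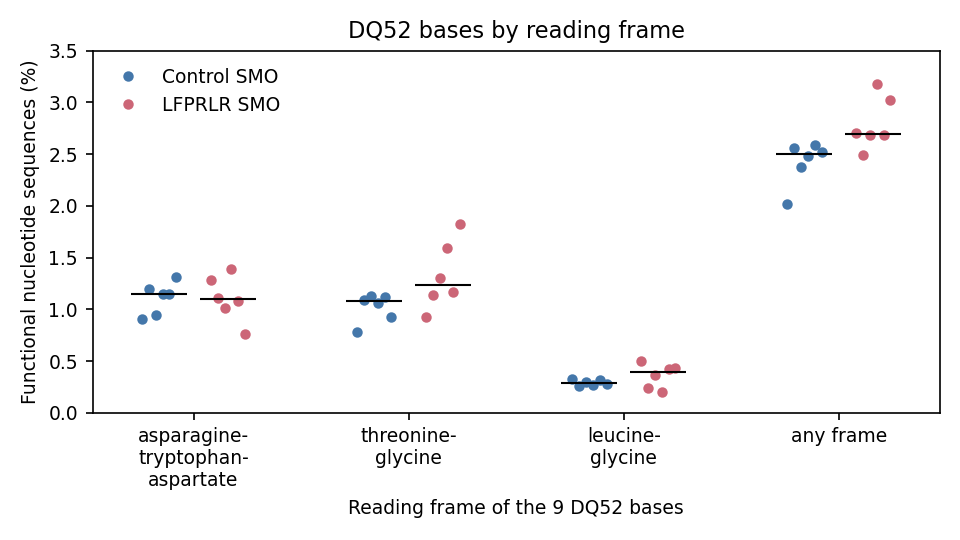
Functional nucleotide sequences whose CDR3 holds the 9 DQ52 bases (%), by the reading frame in which they are used. Each point is 1 mouse and black lines are group medians. The highest point in any frame is LFPRLR SMO replicate 6, with 16 of 503 sequences. The asparagine-tryptophan-aspartate and threonine-glycine frames were used at similar levels, the leucine-glycine frame less, and in any frame the medians were 2.50% in control SMO-treated and 2.69% in LFPRLR SMO-treated mice.

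DQ52 sequences had shorter CDR3s than the other sequences of the same library. Their mean length was 10.22 residues (SD 0.380, n = 12 libraries) against 11.08 (SD 0.281) for the rest. In control SMO-treated mice the means for DQ52 and the rest were 10.71 and 11.60 in replicate 3, 10.23 and 11.03 in replicate 4, 10.07 and 11.02 in replicate 5, 10.48 and 10.73 in replicate 7, 10.26 and 11.28 in replicate 8, and 10.32 and 11.03 in replicate 9. In LFPRLR SMO-treated mice they were 9.86 and 10.82 in replicate 3, 9.81 and 10.76 in replicate 4, 9.56 and 11.03 in replicate 5, 10.71 and 10.88 in replicate 6, 9.97 and 11.23 in replicate 7, and 10.67 and 11.52 in replicate 8. DQ52 was shorter in all 12 libraries, with differences from -1.47 to -0.166 residues. The mean difference was -0.855 residues (SD 0.365), with an exact sign-flip p of 0.000488, the smallest that 12 libraries can give, and an adjusted p of 0.00171 over 7 measures. Because the rule asks for 3 residues, joins that trimmed DQ52 further stand among the rest, unless the J segment supplied the missing bases.

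The single longest DQ52 CDR3 had 20 residues and the shortest 4. At 14 residues the DQ52 set held 3.73% of its translations (SD 2.03, n = 11 libraries with at least 100 members) against 8.63% (SD 1.13) in the rest. At 7 residues the shares were 8.05% (SD 5.01) and 5.22% (SD 0.976). The DQ52 shares varied more between mice than those of the rest, with far fewer sequences behind them.

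**Figure D3:**
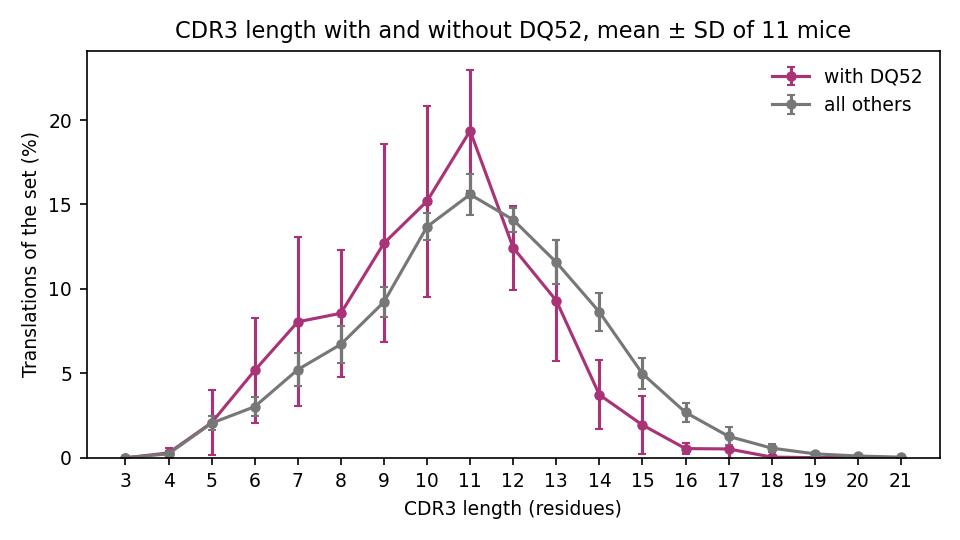
CDR3 length in residues against the share of translations of each length (%), for DQ52 translations and all others. Points are means and bars SDs over the 11 mice with at least 100 DQ52 translations. Both sets peak at 11 residues, and the DQ52 curve lies below the other from 12 residues upward.

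The J segments differ in how many residues they add, so length was also compared within each J. DQ52 CDR3s joined to J2 had a median of 9.76 residues over libraries against 10.24 for other J2 sequences, and were shorter in 10 of 12 libraries. Those joined to J3 had 10.10 against 10.70 and were shorter in 11 of 12. Those joined to J4 had 11.41 against 11.99 and were shorter in 10 of 12. Those joined to J1 had 11.67 against 12.11 and were shorter in 8 of the 11 libraries that held any. Averaged over the J segments with equal weight, the difference was -0.612 residues (SD 0.258) and negative in 12 of 12 libraries (exact sign-flip p = 0.000488). The number of residues ahead of the motif was much alike for all 4 J segments, with medians from 3.24 (J3) to 3.4 (J1), while the number after it ran from 3.28 with J2 to 5.46 with J1.

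Among the J partners, sequences with the DQ52 motif were joined to J2 more often than other sequences were. The rule is not independent of J. J1 (FDV), J2 (FDY) and J4 (AMDY) hold an aspartate near the end of the CDR3, while J3 (FAY) holds none. A DQ52 that lost its last codon can still meet the rule if the J segment supplies the aspartate. How much of the J differences given here and below comes from this was not tested. J2 and J3 are the shortest J segments of the annotation (48 bases, against 53 for Ighj1 and 54 for Ighj4), and J2 usually ends the CDR3 with FDY. In control SMO-treated mice J2 was the partner of 40.1%, 49.0%, 61.0%, 48.0%, 46.0% and 45.3% of DQ52 translations in replicates 3, 4, 5, 7, 8 and 9, against 28.7% to 34.8% of the rest. In LFPRLR SMO-treated mice it was the partner of 49.7%, 51.4%, 58.2%, 42.9%, 49.8% and 41.9% in replicates 3 to 8, against 30.2% to 34.6% of the rest. Every DQ52 value lay above every value of the rest. The mean difference was 16.4 percentage points (SD 5.68), positive in 12 of 12 libraries (exact sign-flip p = 0.000488, adjusted p = 0.00171). Read from the other side, 1.10% to 1.98% of J2 translations carried DQ52 (median 1.78%), against medians of 1.10% for J1, 0.918% for J3 and 0.694% for J4.

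J4, which usually adds the residues AMDY, was the partner of 14.3% to 28.6% of DQ52 translations (median 18.3%) and of 25.7% to 34.3% of the rest (median 28.9%). The difference was -10.6 percentage points (SD 4.33) and negative in 11 of 12 libraries (exact sign-flip p = 0.000977, adjusted p = 0.00228). The exception was LFPRLR SMO replicate 6, with 2 of 7 translations. Among translations read at least 2 times the difference was -4.12 percentage points (exact sign-flip, adjusted p = 0.910), where replicate 6 had 1 DQ52 translation left, joined to J4. With that library left out it was -11.9 percentage points (adjusted p = 0.00228, exact sign-flip test).

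J3, which adds FAY, was the partner of 15.9% to 28.6% of DQ52 translations (median 25.7%) against 25.7% to 29.8% of the rest (median 29.0%). The difference of -4.23 percentage points (SD 4.06) was negative in 11 of 12 libraries (exact sign-flip p = 0.00439, adjusted p = 0.00769). It was -0.808 percentage points and did not pass (adjusted p = 0.529, exact sign-flip) when the 9 bases were counted in any frame. In the threonine-glycine frame, whose commonest CDR3 ATGTWFAY is a J3 join, the J3 difference was 3.18 percentage points (SD 12.8, exact sign-flip p = 0.404). J1, the segment next to DQ52 in the locus, was the partner of 0% to 11.3% of DQ52 translations (median 8.89%) and of 8.36% to 13.4% of the rest (median 9.44%), and the difference of -1.44 percentage points (SD 4.35) was positive in 6 libraries and negative in 6 (exact sign-flip p = 0.312).

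**Figure D4:**
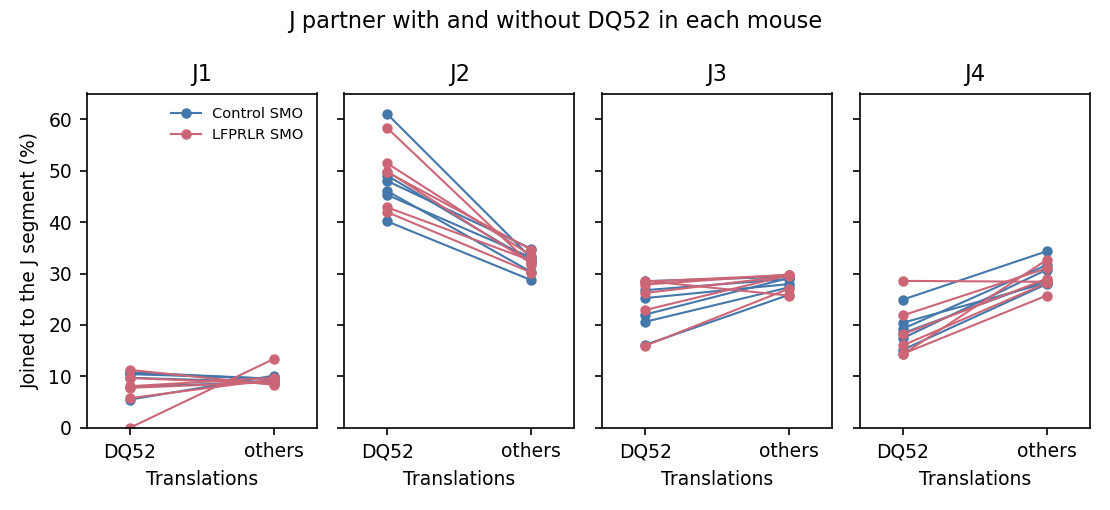
Share of translations joined to each J segment (%), for DQ52 translations and all others of the same mouse. Each line is 1 mouse, coloured by treatment. The lines for J2 fall from DQ52 to the others in all 12 mice and those for J4 rise in 11 of 12, while the lines for J1 go both ways.

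The other reading frames were compared with the rest of their libraries in the same way. For the threonine-glycine frame the difference in mean length was -0.914 residues (SD 0.373, negative in 12 of 12 libraries, exact sign-flip p = 0.000488). Its J2 share differed by 12.6 percentage points (SD 11.6, positive in 11 of 12 libraries, exact p = 0.000977) and its J4 share by -13.9 percentage points (SD 4.69, negative in 12 of 12 libraries, exact p = 0.000488). The leucine-glycine frame had a length difference of 0.00825 residues (SD 0.794, exact sign-flip p = 0.979) and a J2 difference of 8.996 percentage points (SD 15.5, exact p = 0.0713). Its J4 difference was -13.04 percentage points (SD 6.91, negative in 12 of 12 libraries, exact p = 0.000488).

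The J2 difference was also set against the D segments of the Ighd2 (DSP2) family. These were recognised by the residues YGN, YDY or YGY, in 8.22% to 10.1% of translations. The residues DY of YDY can likewise come from the end of J2 or J4, and the effect on the J comparison was not tested. The mean length of Ighd2 CDR3s was 11.99 residues (SD 0.375). DQ52 CDR3s were shorter in 12 of 12 libraries, with a mean difference of -1.77 residues (SD 0.474) (exact sign-flip p = 0.000488, adjusted p = 0.00244 over 10 comparisons). Ighd2 sequences were joined to J2 in a median of 38.8%, and DQ52 exceeded them by 10.1 percentage points (SD 6.95) in 12 of 12 libraries (exact p = 0.000488, adjusted p = 0.00244). For J4 the difference was -12.7 percentage points (SD 6.44), negative in 11 of 12 libraries (exact p = 0.000977, adjusted p = 0.00244). Neither J1 nor J3 differed beyond the spread between libraries, with differences of -0.168 (SD 2.81, exact p = 0.841) and 2.77 percentage points (SD 4.55, exact p = 0.0601).

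Ighd1-1 (DFL16.1), recognised by YGSS, gave only 1 to 190 translations per library (0.00343% to 0.331%) in the tables used here. Whether sequences with this segment are fully represented in them could not be told, and every share of DQ52 and every comparison with the rest refers to the translations these tables hold. Its mean CDR3 length was 12.6 residues (SD 1.47), and the difference of DQ52 from it was -2.41 residues (SD 1.45), negative in 11 of 12 libraries (exact sign-flip p = 0.000977, adjusted p = 0.00244). The J partners did not separate, with adjusted p from 0.547 to 0.884 by the exact sign-flip test and 1 to 6 sequences behind the Ighd1-1 value in 9 libraries. Across the 12 libraries, the shares most like that of DQ52 were those of J2 (Spearman rho 0.61, Pearson r 0.63) and J1 (rho 0.55, r 0.61), given as a description since all are shares of the same translations.

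Reads per sequence differed little between DQ52 and the rest. The share of translations read once was 56.4% to 85.7% for DQ52 (median 63.8%) and 58.6% to 89.9% for the rest (median 64.3%). It was lower for DQ52 in 9 of 12 libraries, with a mean difference of -1.53 percentage points (SD 2.26, exact sign-flip p = 0.0337, adjusted p = 0.0472). This call was lost when control SMO replicate 3, 5, 7, 8 or 9 or LFPRLR SMO replicate 3, 6, 7 or 8 was left out, with an adjusted p of up to 0.0943 by the same exact test. DQ52 translations had a mean of 2.77 reads (SD 0.753) and the rest 3.03 (SD 0.960). That difference of -0.255 reads (SD 0.675) did not pass (exact sign-flip p = 0.217, adjusted p = 0.253), and without control SMO replicate 9 it was -0.389 reads with an adjusted p of 0.0369.

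Single CDR3s took a large part of the DQ52 reads of some mice. The largest share of a control library was that of ARSGNWD, joined to J3, with 1063 reads or 33.9% of the DQ52 reads and 0.601% of all reads with a CDR3 in control SMO replicate 9. In this CDR3 the motif is the last codon triplet before the J tryptophan, and CDR3s that end so made up 16.6% of DQ52 translations in that library against 0% to 5.79% in the other 11. The largest share in the LFPRLR SMO group was that of ARENWDDAMDY, joined to J4, at 0.353% of reads, but in replicate 6 this is 2 reads. Both are shown as the leading DQ52 CDR3 by reads of each group, with the 9 bases in capitals.

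ARSGNWD: gctagatcagggAACTGGGAC
ARENWDDAMDY: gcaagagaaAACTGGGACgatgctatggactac

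In other mice the leading DQ52 CDR3 was ARWTNWDDY with 353 reads in LFPRLR SMO replicate 3 (19.3% of its DQ52 reads), ARRDPANWDLVDY with 428 in control SMO replicate 8 (16.9%) and ARSNWDFDY with 241 in control SMO replicate 5 (23.2%). By reads, DQ52 took 0.674% to 1.77% of a library (median 1.07%), and the highest value was that of control SMO replicate 9.

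No feature of DQ52 sequences differed detectably between the treatment groups. Their mean length had a median of 10.3 residues over control SMO-treated mice and 9.92 over LFPRLR SMO-treated mice, a difference of -0.376 residues (exact Mann–Whitney p = 0.310, adjusted p = 0.785). Within the library sets by Cμ end described below the difference was -0.463 residues in one (exact p = 0.1, the smallest possible) and 0.415 in the other (exact p = 1), and over unique CDR3s it was -0.0333. In the first of these sets J1 (-2.59 percentage points) and J2 (1.85) also had an exact p of 0.1. In the other set J1 differed by -0.185 and J2 by -3.16 percentage points. The J2 medians were 47.0% and 49.8% (exact p = 0.589), those of J3 23.6% and 27.04% (exact p = 0.485), those of J4 18.8% and 17.1% (exact p = 0.589) and those of J1 10.1% and 7.94% (exact p = 0.394). The medians of the share read once were 63.3% and 63.8% (exact p = 0.699), and those of mean reads 3.09 and 2.53 (exact p = 0.180). Adjusted p lay between 0.785 and 0.937 over the 8 measures, and 6 against 6 mice can reach an unadjusted p of 0.00216. The differences between DQ52 and the rest in length, J partner and reads were themselves compared between the groups, and adjusted p was 0.937 for each of the 7 (exact Mann–Whitney U test).

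DQ52 CDR3s were shared between libraries about as often as other CDR3s. Of the 2095 distinct CDR3s, 1672 (79.8%) occurred in 1 library, 155 (7.4%) in both groups and 23 in at least 6 libraries. Of the 214242 distinct CDR3s without the motif, 81.8% occurred in 1 library, 7.24% in both groups and 0.906% in at least 6 libraries, the last against 1.10% for DQ52, with no test of these shares. The median length was 10 residues for DQ52 CDR3s in both groups and 11 for those in 1 library, and 11 and 12 for the rest.

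Some libraries shared more DQ52 CDR3s than others. Among their 50 most abundant V-D-J sequences, 44 were common to control SMO replicates 5 and 7, 34 to replicates 4 and 8 of the same group and 34 to LFPRLR SMO replicates 4 and 5, while the other pairs had at most 13 in common. These 13 were shared across the groups, by control SMO replicate 4 and LFPRLR SMO replicate 6. The latter also shared 8, 7 and 7 with control SMO replicates 8, 5 and 7, and 0 with replicates 3 and 9. Other pairs across the groups had at most 1 in common. Whether LFPRLR SMO replicate 6 holds sequences of other libraries was not tested. Control SMO replicates 5 and 7 had 71 in common (54.2% and 33.6% of their DQ52 CDR3s), control SMO replicates 4 and 8 had 83 (29.96% and 24.9%) and LFPRLR SMO replicates 4 and 5 had 48 (19.2% and 31.6%). The overlap of DQ52 CDR3s did not follow the sharing of abundant sequences alone. Control SMO replicates 4 and 9 had 81 in common (29.2% and 24.04%) with 5 of their 50 most abundant sequences shared, and control SMO replicates 7 and 9 had 61 (28.9% and 18.1%) with 0 shared. Such pairs of the same group and the same set by Cμ end, described below, overlapped by 4.58% to 29.2% of the smaller set (median 22.3%, 10 pairs), pairs of the same group and different sets by 6.23% to 22.1% (median 9.35%, 12 pairs) and pairs of different groups by 3.82% to 15.6% (median 8.67%, 30 pairs), all without LFPRLR SMO replicate 6. With each of the 3 pairs averaged, which left 9 libraries, the length difference was -0.839 residues (exact sign-flip, adjusted p = 0.0137), that of J2 15.3 percentage points (adjusted p = 0.0137), that of J4 -10.1 (adjusted p = 0.0182) and that of J3 -3.22 (adjusted p = 0.0438), and the share differed by -0.0203 percentage points between the groups (exact Mann–Whitney p = 0.905). This averaging left in the overlap of other pairs, such as control SMO replicates 4 and 9, so the 9 libraries may still not be independent.

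The libraries also fell into sets of 6 by the Cμ end of their sequences. A second version of that end made up 32.9% to 39.9% of sequences in control SMO replicates 4, 7 and 9 and LFPRLR SMO replicates 3, 4 and 7, and 0.307% to 2.47% in the other 6. The length difference of DQ52 was -0.821 residues in the first set and -0.890 in the second, and that of J2 15.5 and 17.3 percentage points, with the same sign in all 6 libraries of each set (exact sign-flip p = 0.0312, the smallest that 6 libraries can give). Within the sets the group medians of the DQ52 share were 1.21% and 1.19% (exact p = 0.7) and 1.06% and 1.09% (exact p = 1), and for the 9 bases in any frame LFPRLR SMO exceeded control SMO by 0.167 (exact p = 0.4) and 0.646 percentage points (exact p = 0.1, the smallest possible with 3 against 3).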

How the data were processed

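The authors amplified RNA of splenic B cells from J558 VH to Cμ, sequenced the amplicons on a MiSeq, and deposited for each mouse the read counts of unique nucleotide sequences and of unique translations, not normalized. The steps that merged and filtered reads are not given in the sources used here. Columns of lengths added to 1 table were not used. In Python (3.11.15, with SciPy 1.17.1 for exact tests and NumPy 2.4.6), the CDR3 was taken from translations without a stop, between the cysteine at residues 16 to 30 and the tryptophan of the last J motif, and J was called from the framework that follows (6 DQ52 translations got no call). Each translation counted once. Groups were compared by an exact two-sided Mann–Whitney U test (924 arrangements) and DQ52 with other sequences by an exact sign-flip test over 12 libraries, with Benjamini-Hochberg adjustment over 8, 7 and 10 measures. CDR3s named were the 5 found in the most libraries and the leading 1 by reads per group. CDR3 location and the rank test were tested on simulated data. The members and lists were chosen with earlier results of these data known. Nothing says that libraries sharing sequences came from separate RNA, so p-values measure the spread between libraries.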

Additional observations from a re-analysis of the deposited data

Results flagged for a closer look

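In LFPRLR SMO replicate 6, 85.7% of the DQ52 translations were read once, and the other 5 LFPRLR SMO-treated mice lay between 61.4% and 67.6%. The gap to the nearest mouse was 0.745 of the range of the group, above Dixon's 95% critical value for 6 samples. The library held 627 reads and 7 DQ52 translations, and 89.9% of its other translations were also read once. Chance alone places about 1 in 20 groups above that value, and 16 groups of values were checked.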

How the results depend on the processing

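With each library left out in turn, DQ52 against the rest ranged from -0.918 to -0.800 residues in length, 15.3 to 16.9 percentage points for J2, -11.6 to -9.93 for J4, -4.88 to -3.61 for J3, -1.83 to -0.352 for J1 and -1.76 to -1.16 for the share read once, and from -0.389 to -0.154 mean reads. In the library sets of 6, whose smallest possible p is 0.0312, no call passed adjustment. Length was -0.821 and -0.890 residues, J2 15.5 and 17.3, J3 -4.44 and -4.03, J4 -10.9 and -10.4 and read once -1.35 and -1.72 percentage points. Mean reads turned to 0.0472 in the first set and to 0.0662 over unique CDR3s. Counting the 9 bases in any frame gave -0.808 for J3 and -0.640 for read once, and the nucleotide table gave -1.11 for read once, all no longer past the threshold, while read once was -3.25 over unique CDR3s (exact sign-flip, adjusted p = 0.00513) and -2.04 with sharing libraries averaged (adjusted p = 0.0410). J3 was -8.64 at 2 reads or more (adjusted p = 0.00513) and -6.98 weighted by reads (adjusted p = 0.0450, exact test). J4 was -4.12 among translations with at least 2 reads. J1 passed when weighted by reads (-4.18). As sets of their own, chosen after seeing the data, the threonine-glycine frame gave -2.16 for J1 (past the threshold) and 3.18 for J3, and the leucine-glycine frame 0.00825 residues, 0.881 for J1, 8.996 for J2 and 3.26 for J3. The J1 difference from Ighd2 was 0.179 over unique CDR3s.

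Between the groups, no measure of the sequences with the DQ52 motif passed adjustment under the alternatives run, while the share of the 9 bases in any frame passed without LFPRLR SMO replicate 4 (adjusted p = 0.0346, exact test). The difference in share was 0.0207 over unique CDR3s, 0.195 for the 9 bases in any frame, 0.0132 as a difference in means and 0.00233 within library sets, and ran from -0.0944 to 0.00858 with single libraries left out. The J2 difference was -2.97 over unique CDR3s and -0.655 within library sets, that of J3 -0.309 at 2 reads or more, and that of J4 0.593 over unique CDR3s, 0.373 at 2 reads or more and 0.123 within library sets. The share read once ran from -0.371 to 1.41 with libraries left out. For the 9 bases in any frame, leave-one-out gave 0.178 to 0.213 and weighting by reads 0.467 (exact test, adjusted p = 0.932). The difference in length was -0.0238 residues averaged over the library sets. With single libraries left out, mean reads ran from -0.821 to -0.2995, J3 from 1.81 to 5.02, J4 from -2.80 to -0.631 and J2 from 1.78 to 3.74. Without a minimum mean share, 581 tripeptides of 7421 had an unadjusted p under 0.05. The cause of these changes was not tested.

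Replicate numbers 3, 4, 5, 7 and 8 occur in both groups but belong to different mice. Over tripeptide shares, same-numbered libraries correlated from -0.476 to 0.416 in their deviations from the group means, and in 0 of 5 pairs was the own number the best match. With the replicate block (exact sign-flip over 5 pairs, smallest possible p = 0.0625) the share differed by -0.0186 percentage points (exact p = 0.75) and length by -0.509 residues (exact p = 0.125). No measure could pass the threshold of 0.05 with the block, so it cannot show whether calls depend on it. Without the block the count of calls between the groups was 0.

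What the depth limits is LFPRLR SMO replicate 6, whose 7 DQ52 translations allow a share from 0.689% to 2.90%.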
